A study of Zea mays with 18 samples.

Results

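The BT genes of maize, which encode proteins with a BTB/POZ domain and a TAZ zinc finger, were followed in roots of zmnlp3.1, zmnrt1.1b and WT seedlings supplied with KNO3 or KCl. Members were all genes of the expression table whose protein description names a BTB/POZ and TAZ domain-containing protein, which gave 8 of 47334 genes. The descriptions carry the names of the most similar Arabidopsis proteins, with 3 genes named BT2, 4 named BT3 and 1 named BT4. The domain annotation covers less of the set. Only 2 of the 8 members, gene_Zm00001d042443 and Zm00001d025707, carry both a TAZ zinc finger and a BTB/POZ domain in the Pfam column of the table, and they are the 2 genes of the whole table with a TAZ zinc finger there. The other 6 members are BT genes by description only.

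Plants of all 6 groups were of the inbred line ND101. The zmnlp3.1 mutants carry CRISPR/Cas9 alleles of a NIN-like protein (NLP), a family of nitrate-activated transcription factors, and the zmnrt1.1b mutants carry CRISPR/Cas9 alleles of the NO3- transporter gene ZmNRT1.1B. The sample labels call both lines knockdowns, the methods describe loss-of-function mutants, and the sources used here do not say which allele was sequenced. Seedlings were grown for 10 days with full nutrients, starved of N for 4 days and then given 5 mM KNO3 or 5 mM KCl for 2 h, so that KCl controls for the potassium added with the NO3-. Each of the 6 groups had 3 libraries of poly(A) RNA that the labels call biological replicates, with 16955904 to 19116969 reads on genes per library. Nothing further ties the replicates to separate cultures, so p-values measure the spread between these samples.

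BT proteins are known from Arabidopsis, where the BTB/POZ domain binds the cullin CUL3 and the BT protein presents substrates to the ubiquitin ligase. BT2 in Arabidopsis also binds calmodulin and the bromodomain proteins GTE9 and GTE11, and acts downstream of the telomerase activator TAC1. BT1 and BT2 of Arabidopsis repress high-affinity nitrate transporter genes and limit nitrogen use efficiency, as a BT gene does in rice, and Arabidopsis NLP factors activate BT genes when nitrate arrives.

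The data hold 1 abundant nitrate-responsive BT gene and 2 weaker BT genes that did not pass the response test, while the other 5 members were nearly or wholly silent in these roots. Gene_Zm00001d042443 (BT2) rose under KNO3 in each of the 3 genotypes, and under KNO3 its level in zmnlp3.1 was 9.59% and in zmnrt1.1b 34.2% of that in WT. Zm00001d025707 (BT2) was not called as KNO3-responsive in any genotype, but under KNO3 it was lower in both mutants, at 54.1% of the WT mean in zmnlp3.1 and 45.9% in zmnrt1.1b. The zmnlp3.1 call was lost without some single libraries, and the zmnrt1.1b call under 1 of 7 alternative settings. Under KCl Zm00001d025707 was also called lower in zmnlp3.1, at 51.4% of the WT mean, a call likewise lost without some single libraries. Zm00001d017101 (BT2) passed no test.

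Levels are given as FPKM, read fragments scaled to the length of the transcript and the size of the library, which corrects for gene length and so allows the members to be set side by side. Gene_Zm00001d042443 lies on chromosome 3 (167612707 to 167616683, minus strand) and averaged 132 FPKM over the 18 libraries. Zm00001d025707, on chromosome 10 (126903970 to 126906191, plus strand), averaged 12.5 FPKM. Zm00001d017101, on chromosome 5 (185440354 to 185443605, plus strand), averaged 3.66 FPKM. Coordinates are those of the B73 RefGen_v4 build. No member overlapped another annotated gene, and the nearest neighbour of gene_Zm00001d042443, gene_Zm00001d042442, ended 313 bases from its 3′ side on the other strand with 1.73 to 3.22 FPKM over all libraries.

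The other 5 members gave few or no reads. Zm00001d035819 (BT3; chromosome 6, 52814687 to 52816136, minus strand) had 0 to 7 reads per library and at most 0.465 FPKM, with 15 reads in the 9 KNO3 libraries and 28 reads in the 9 KCl libraries. It stayed below 1 FPKM in every library, while the expression minimum asked for 1 FPKM in at least 3 libraries, and was therefore not among the genes tested. With the minimum lowered to 0.1 FPKM its response to KNO3 was −0.06 in zmnlp3.1, −0.75 in zmnrt1.1b and −0.61 in WT on the log2 scale, with adjusted p-values of 0.973, 0.488 and 0.646 from limma, so that no difference was detectable at this depth. Zm00001d042549 (BT4; chromosome 3, 171514199 to 171518513, minus strand) had 1 read, in replicate 1 of WT under KCl. Zm00001d009478 (BT3; chromosome 8, 66708001 to 66708900, plus strand), Zm00001d046179 (BT3; chromosome 9, 69829872 to 69831959, plus strand) and Zm00001d046671 (BT3; chromosome 9, 101608038 to 101612532, plus strand) had 0 reads in every library. A count of 0 over the 18 libraries, with a floor of 3 reads, allows mean levels of up to 0.0184 FPKM for Zm00001d009478, 0.0165 FPKM for Zm00001d046179 and 0.02 FPKM for Zm00001d046671, limits that cover counting error only.

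Markers of the labelled tissue were expressed in these libraries. All 6 genes of Casparian strip membrane proteins, which mark the root endodermis, reached 1 FPKM in at least 3 libraries, and their summed level lay between 19.8 and 85.0 FPKM over the libraries. Of 32 genes for chlorophyll a-b binding proteins and the Rubisco small subunit, 8 reached that minimum and 7 were at 0 in every library, with summed levels of 10.9 to 26.0 FPKM. The study names the mutated genes by identifiers of an earlier annotation, which the tables used here do not pair with those of the expression table, so the genotype labels were not checked on these transcripts. In whole roots, fewer cells of an expressing type and less RNA per cell cannot be told apart. Replicate 4 of zmnlp3.1 under KCl and replicate 2 of zmnrt1.1b under KNO3 were the least like their groups, with mean rank correlations to the 2 other libraries of 0.960 and 0.958 across genes, against 0.966 to 0.985 for the other libraries.

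Gene_Zm00001d042443 responded to KNO3 in all genotypes. In zmnlp3.1 it had 48.2, 54.8 and 44.1 FPKM under KNO3, against 13.1, 12.7 and 5.83 FPKM under KCl. In zmnrt1.1b it had 170, 174 and 180 FPKM under KNO3, against 24.6, 19.5 and 19.2 FPKM under KCl. In WT it had 439, 564 and 531 FPKM under KNO3, against 30.6, 25.5 and 24.1 FPKM under KCl. The groups did not overlap in any genotype, and the lowest KNO3 library exceeded the highest KCl library 3.35-fold in zmnlp3.1, 6.93-fold in zmnrt1.1b and 14.3-fold in WT. Of all genes tested, 16.3% in zmnlp3.1, 15.7% in zmnrt1.1b and 17.4% in WT were likewise higher in all 3 KNO3 libraries than in any KCl library. The lowest KCl value, 5.83 FPKM, came from replicate 4 of zmnlp3.1, the library least like its group.

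**Figure D1:**
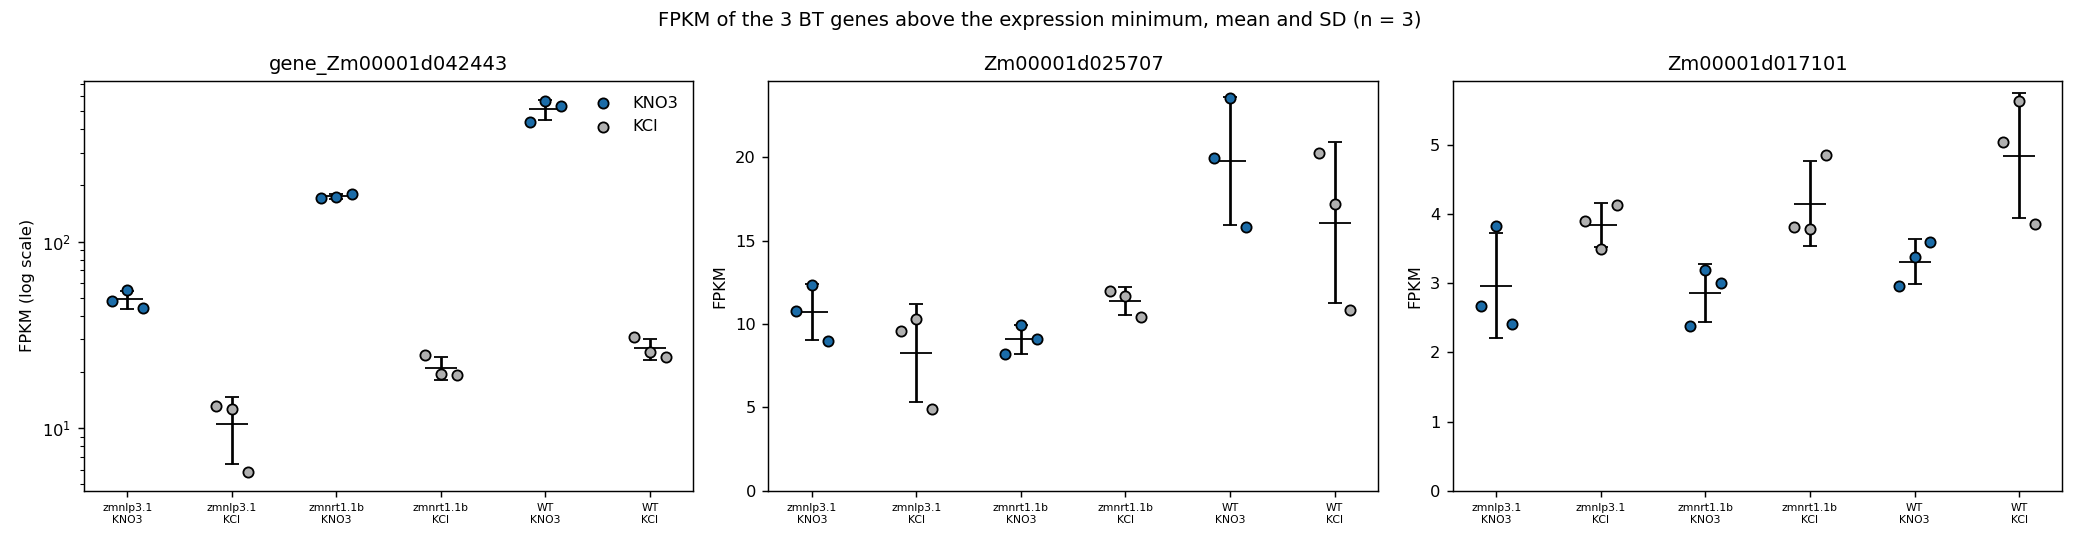
FPKM of gene_Zm00001d042443 (log axis), Zm00001d025707 and Zm00001d017101 (linear axes from 0) in every library, by genotype and treatment, with points for libraries (blue for KNO3, grey for KCl), a horizontal bar for the mean and error bars for the SD (n = 3). The KNO3 libraries of gene_Zm00001d042443 lie above the KCl libraries in every genotype and are lowest in zmnlp3.1 (44.1 to 54.8 FPKM), higher in zmnrt1.1b (170 to 180 FPKM) and highest in WT (439 to 564 FPKM).

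The log2 response of this gene was 2.29 in zmnlp3.1 with an adjusted p of 2.76e-05, 3.05 in zmnrt1.1b with an adjusted p of 1.34e-06, and 4.25 in WT with an adjusted p of 1.56e-08, each with a standard error of 0.23 in limma. A response was called at an adjusted p below 0.05 with a change of over 1 on the log2 scale, and 1 of the 3 members tested was called in each genotype. Of all 26011 genes tested, 1.74% were called higher in zmnlp3.1, 2.03% in zmnrt1.1b and 2.75% in WT. Ranked by size among all genes, the increase was the 67th largest in zmnlp3.1, the 16th largest in zmnrt1.1b and the 5th largest in WT. In ratios of mean FPKM, KNO3 over KCl was 4.64 in zmnlp3.1, 8.29 in zmnrt1.1b and 19.1 in WT. The increase in FPKM was 38.5 in zmnlp3.1 and 154 in zmnrt1.1b, which is 7.94% and 31.7% of the 485 FPKM gained in WT. The 3 calls held under all 7 alternative settings and without each library in turn. Without replicate 4 of zmnlp3.1 under KCl the response in zmnlp3.1 was 1.91. Green-tissue markers moved with the treatment in this mutant, with summed levels of 17.9 to 21.9 FPKM under KNO3 and 10.9 to 13.3 FPKM under KCl in zmnlp3.1, where 8 of the 32 genes reached the minimum and 7 were at 0 throughout. The groups overlapped in zmnrt1.1b (15.7 to 21.2 FPKM under KNO3 and 20.9 to 26.0 FPKM under KCl) and in WT (18.1 to 20.9 FPKM under KNO3 and 15.1 to 19.7 FPKM under KCl). The part of these markers in the response was not tested.

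Whether the genotypes differed in this response was tested as the difference between 2 responses. The response of gene_Zm00001d042443 was smaller in zmnlp3.1 than in WT by 1.96 on the log2 scale (log2 difference −1.96, 95% interval −2.64 to −1.28, adjusted p = 0.00407 from limma), and 2.68% of all genes tested were called with a smaller value in that comparison. The call held under all 7 alternatives and in every fit that left out a library. Against WT, the response of zmnrt1.1b differed by −1.20 (95% interval −1.88 to −0.52), which missed the threshold with an adjusted p of 0.0727, where 0.969% of all genes tested were called with a smaller value. It passed at −1.20 with an adjusted p of 0.00455 without replicate 4 of zmnlp3.1 under KCl, a library that enters this difference only through the shared estimate of the spread, and also at −1.14 with an adjusted p of 0.0263 on the recovered reads and at an adjusted p of 0.0117 when only the WT and zmnrt1.1b libraries were fitted. Between the mutants, the zmnlp3.1 response differed from that of zmnrt1.1b by −0.77 (95% interval −1.45 to −0.09, adjusted p = 0.286), and 0.411% of all genes tested were called with a smaller value. Without replicate 4 of zmnlp3.1 under KCl this difference was −1.14 and passed, with an adjusted p of 0.00787. Thus 1 of 3 members tested was called for zmnlp3.1 against WT and 0 for the other 2 comparisons (1.51% of all genes in either direction for zmnrt1.1b against WT and 1.79% for zmnlp3.1 against zmnrt1.1b), where limma gave 1 member each at an unadjusted p below 0.05 and voom on the recovered reads called 1 for zmnrt1.1b against WT and 0 for zmnlp3.1 against zmnrt1.1b.

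**Figure D2:**
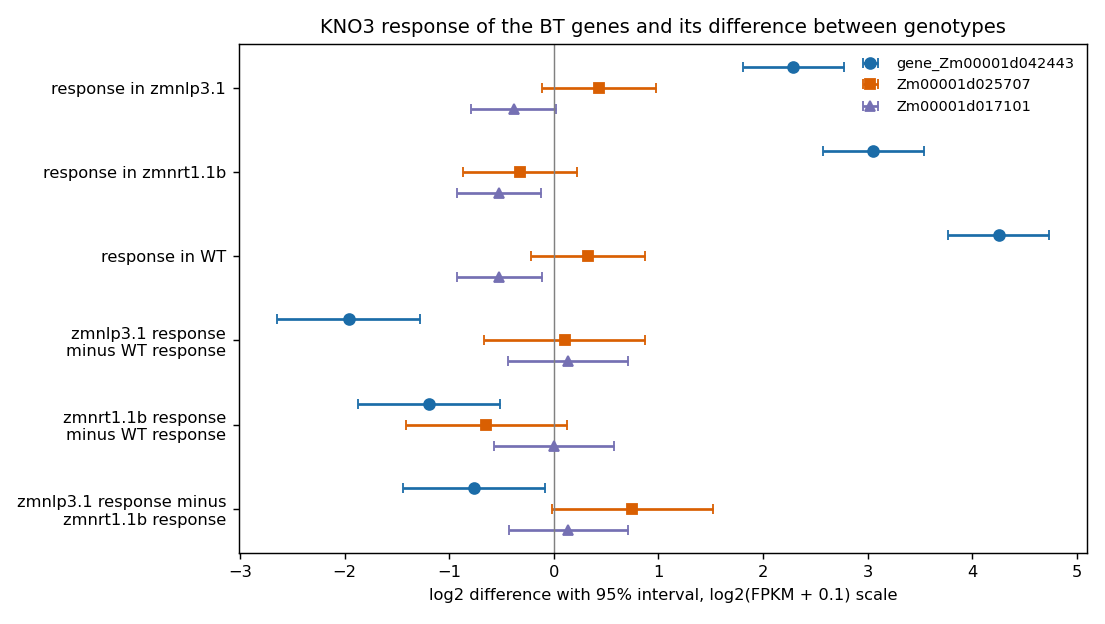
KNO3 responses (KNO3 minus KCl) of the 3 BT genes tested in each genotype, and the differences between those responses, as log2 differences of FPKM + 0.1 on the x axis with 95% intervals from limma. Gene_Zm00001d042443 lies far to the right in each genotype, at 2.29, 3.05 and 4.25 in zmnlp3.1, zmnrt1.1b and WT, while the points of Zm00001d025707 and Zm00001d017101 stay within 1 of 0.

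Under KNO3 the genotypes were fully separated for gene_Zm00001d042443, in the order zmnlp3.1, zmnrt1.1b, WT. Its mean was 49.0 ± 5.40 FPKM in zmnlp3.1, 175 ± 5.08 FPKM in zmnrt1.1b and 511 ± 64.7 FPKM in WT (SD, n = 3 each). Against WT it was lower by 3.38 on the log2 scale in zmnlp3.1 (log2 difference −3.38, standard error 0.23, adjusted p = 1.6e-07 from limma), the 26th largest decrease of that comparison. Against WT it was lower by 1.54 in zmnrt1.1b (log2 difference −1.54, adjusted p = 0.00031). Against zmnrt1.1b it was lower by 1.84 in zmnlp3.1 (log2 difference −1.84, adjusted p = 0.000132), at 28.0% of the mean of that mutant. Groups that did not overlap, with the first lower, were found for 24.8% of all genes tested in zmnlp3.1 against WT, 18.4% in zmnrt1.1b against WT and 14.8% in zmnlp3.1 against zmnrt1.1b. Both mutant comparisons used the same WT libraries.

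Under KCl the levels of gene_Zm00001d042443 were closer together. They averaged 10.6 ± 4.10 FPKM in zmnlp3.1, 21.1 ± 3.04 FPKM in zmnrt1.1b and 26.8 ± 3.44 FPKM in WT (SD, n = 3 each). All 3 zmnlp3.1 libraries lay below all libraries of the other genotypes, as they did for 16.5% of all genes tested against WT and 17.7% against zmnrt1.1b, whereas zmnrt1.1b and WT overlapped. The zmnlp3.1 level was lower by 1.41 on the log2 scale against WT (log2 difference −1.41, adjusted p = 0.00146 from limma) and by 1.07 against zmnrt1.1b (log2 difference −1.07, adjusted p = 0.00809). Without replicate 4 of zmnlp3.1 the difference from WT was −1.04 and that from zmnrt1.1b was −0.69, and both still passed, with adjusted p-values of 0.00115 and 0.0107. When only the 2 groups compared were fitted, the adjusted p was 0.0535 against WT and 0.0918 against zmnrt1.1b, and the call against zmnrt1.1b was also lost without replicate 2 of zmnrt1.1b under KCl (−0.96, adjusted p = 0.0516). In zmnrt1.1b against WT the log2 difference was −0.34 with an adjusted p of 0.534.

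Over the 6 groups, the mean levels of gene_Zm00001d042443 were, in ascending order, those of zmnlp3.1, zmnrt1.1b and WT under KCl, followed by zmnlp3.1, zmnrt1.1b and WT under KNO3. The neighbours in this order overlapped in 1 place, between zmnrt1.1b and WT under KCl. The KNO3 libraries of zmnlp3.1, with 44.1 to 54.8 FPKM, lay above the KCl libraries of WT, with 24.1 to 30.6 FPKM, a pair that was not tested.

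Zm00001d025707, the other member with both domains, was called in comparisons of the mutants with WT but in no response to KNO3. In zmnlp3.1 it had 10.8, 12.3 and 8.99 FPKM under KNO3, against 9.60, 10.3 and 4.87 FPKM under KCl. In zmnrt1.1b it had 8.19, 9.93 and 9.12 FPKM under KNO3, against 11.97, 11.7 and 10.4 FPKM under KCl. In WT it had 19.9, 23.5 and 15.8 FPKM under KNO3, against 20.2, 17.2 and 10.8 FPKM under KCl. Treatments overlapped in zmnlp3.1 and WT, while in zmnrt1.1b all 3 KNO3 libraries were lower than all KCl libraries, as they were for 17.8% of all genes tested. The log2 response was 0.43 in zmnlp3.1 (95% interval −0.11 to 0.97, adjusted p = 0.286 from limma), −0.32 in zmnrt1.1b (95% interval −0.86 to 0.22, adjusted p = 0.428) and 0.33 in WT (95% interval −0.22 to 0.87, adjusted p = 0.49). The differences between these responses were 0.10 for zmnlp3.1 against WT (95% interval −0.67 to 0.87), −0.65 for zmnrt1.1b against WT (95% interval −1.42 to 0.12) and 0.75 for zmnlp3.1 against zmnrt1.1b (95% interval −0.02 to 1.52), with adjusted p-values of 0.906, 0.374 and 0.368. These values moved with single libraries, and without replicate 4 of zmnlp3.1 under KCl the response in zmnlp3.1 was 0.09 and its difference from zmnrt1.1b 0.41, while without replicate 3 of WT under KCl the response in WT was 0.07 and the difference of zmnrt1.1b from WT −0.39.

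Under KNO3 the mutant libraries of Zm00001d025707 all lay below the WT libraries, as they did for 24.8% of all genes tested in zmnlp3.1 and 18.4% in zmnrt1.1b. The mean was 10.7 ± 1.67 FPKM in zmnlp3.1, 9.08 ± 0.871 FPKM in zmnrt1.1b and 19.8 ± 3.85 FPKM in WT (SD, n = 3 each). In zmnlp3.1 it was lower than in WT, with a log2 difference of −0.87 (adjusted p = 0.0173, standard error 0.26). In zmnrt1.1b it was also lower than in WT, with a log2 difference of −1.10 (adjusted p = 0.00797, standard error 0.26). The call for zmnlp3.1 was lost without replicate 3 of WT under KNO3 (−0.74, adjusted p = 0.0795) or replicate 4 of zmnlp3.1 under KNO3 (−0.75, adjusted p = 0.0781). The call for zmnrt1.1b held without each library in turn and was lost under 1 of the 7 alternatives. Between the mutants, zmnlp3.1 minus zmnrt1.1b was 0.23 with an adjusted p of 0.581. Under KCl the mean was 8.26 ± 2.96 FPKM in zmnlp3.1, 11.4 ± 0.847 FPKM in zmnrt1.1b and 16.1 ± 4.81 FPKM in WT (SD, n = 3 each). All zmnlp3.1 libraries under KCl lay below all WT libraries (10.3 FPKM at most, against 10.8 FPKM at least), as they did for 16.5% of all genes tested. The zmnlp3.1 level under KCl was called lower than in WT (log2 difference −0.98, adjusted p = 0.0252 from limma). This call was lost without replicate 4 of zmnlp3.1 (−0.64, adjusted p = 0.115), without replicate 1 of WT (−0.79, adjusted p = 0.118), without replicate 2 of WT (−0.91, adjusted p = 0.082) and with only the 2 groups fitted (adjusted p = 0.143). The zmnrt1.1b level differed from WT by −0.45 with an adjusted p of 0.435, and zmnlp3.1 differed from zmnrt1.1b by −0.52 with an adjusted p of 0.212.

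Counted over the members, every genotype difference that was called was a decrease, in a mutant against WT or in zmnlp3.1 against zmnrt1.1b. Under KNO3, 2 of the 3 members tested were called lower in zmnlp3.1 than in WT, against 16.7% of all genes tested, and 2 of 3 were called lower in zmnrt1.1b than in WT, against 9.66% of all genes. Under KCl, 2 of 3 were called lower in zmnlp3.1 than in WT (6.81% of all genes) and 0 of 3 differed between zmnrt1.1b and WT (3.92% of all genes in either direction), where limma gave 0 at an unadjusted p below 0.05 and voom also called 0. In zmnlp3.1 against zmnrt1.1b, 1 of 3 was called lower under KNO3 (8.63% of all genes) and 1 of 3 under KCl (7.01%), the gene being gene_Zm00001d042443 in both. Marker genes moved with some of these groups. The 6 Casparian strip genes summed to 40.3 to 57.6 FPKM in zmnlp3.1, 19.8 to 43.8 FPKM in zmnrt1.1b and 52.5 to 85.0 FPKM in WT under KNO3, so that all zmnrt1.1b libraries lay below all WT libraries. The 32 genes of green tissue summed to 10.9 to 13.3 FPKM in zmnlp3.1, 20.9 to 26.0 FPKM in zmnrt1.1b and 15.1 to 19.7 FPKM in WT under KCl, and 7 of them were at 0 throughout. The part of these differences in the BT results was not tested.

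**Figure D3:**
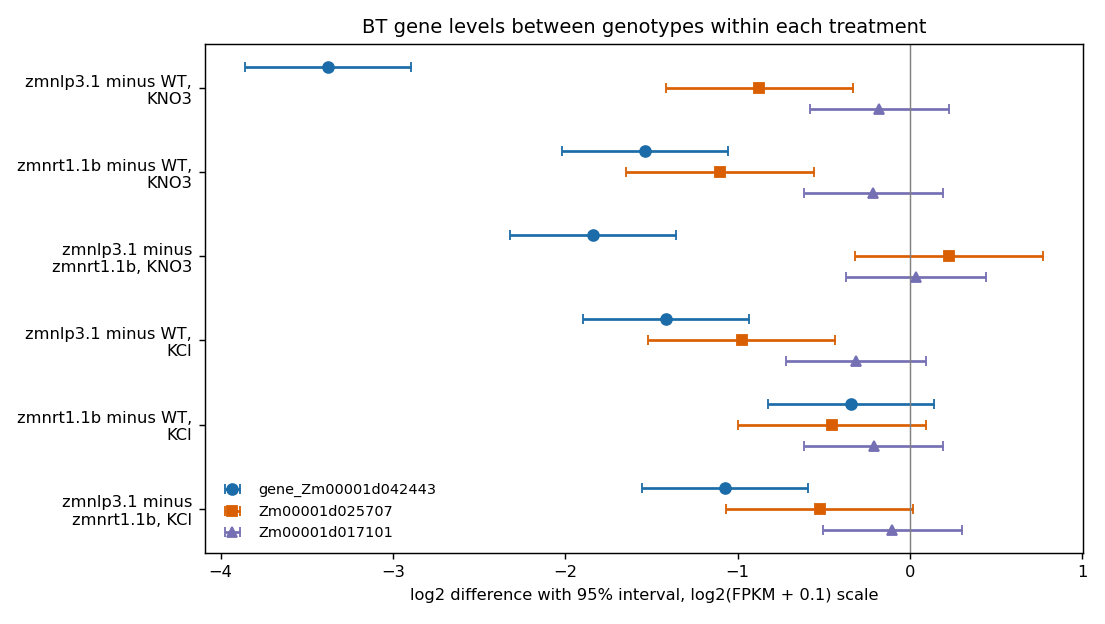
Level differences between genotypes of the 3 BT genes tested, within KNO3 (upper 3 rows) and within KCl (lower 3 rows), as log2 differences of FPKM + 0.1 on the x axis with 95% intervals from limma. Gene_Zm00001d042443 and Zm00001d025707 lie left of 0 against WT under KNO3 in both mutants, with gene_Zm00001d042443 farthest left in zmnlp3.1 at −3.38, and the intervals of Zm00001d017101 all include 0.

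Zm00001d017101, a BT2 gene by description with no Pfam domain listed, had a lower mean under KNO3 than under KCl in every genotype, without passing the test. In zmnlp3.1 it had 2.67, 3.83 and 2.41 FPKM under KNO3, against 3.90, 3.496 and 4.13 FPKM under KCl. In zmnrt1.1b it had 2.39, 3.19 and 3.00 FPKM under KNO3, against 3.81, 3.78 and 4.86 FPKM under KCl. In WT it had 2.96, 3.38 and 3.60 FPKM under KNO3, against 5.05, 5.63 and 3.86 FPKM under KCl. The KNO3 libraries were all lower in zmnrt1.1b and WT, as in 17.8% and 17.3% of all genes tested, and overlapped with KCl in zmnlp3.1. The log2 response was −0.39 in zmnlp3.1, −0.52 in zmnrt1.1b and −0.52 in WT, with adjusted p-values of 0.192, 0.075 and 0.0879 from limma. The gene had 49 to 93 reads per library under KNO3 and 83 to 131 reads under KCl. Its responses in the 3 genotypes differed from each other by 0.14 at most on the log2 scale, with intervals of −0.43 to 0.71 for zmnlp3.1 against WT and −0.57 to 0.57 for zmnrt1.1b against WT. Its levels between genotypes differed by 0.31 at most, and none of the 6 level comparisons passed.

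The make-up of BT transcripts differed between the treatments. Of the summed FPKM of all 8 members, gene_Zm00001d042443 made up 78.1% ± 0.961 in zmnlp3.1, 93.6% ± 0.572 in zmnrt1.1b and 95.6% ± 0.729 in WT under KNO3 (SD, n = 3 each). Under KCl it made up 45.3% ± 5.41 in zmnlp3.1, 57.1% ± 3.03 in zmnrt1.1b and 56.3% ± 5.10 in WT (SD, n = 3 each). In each genotype all KNO3 libraries had a higher share than any KCl library.

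The genes most alike to each member over the 18 libraries were found by Pearson's r of log2(FPKM + 0.1), given as a description, since the libraries share 6 groups. For gene_Zm00001d042443 these were Zm00001d018206, a nitrate reductase [NAD(P)H], the enzyme that reduces nitrate to nitrite (r = 0.988), Zm00001d010136, a chloroplastic Ferredoxin-6, an electron carrier (r = 0.987), and Zm00001d005951, the homeobox-leucine zipper protein HOX4 (r = 0.986). A total of 201 genes had an r above 0.9 with it. Nitrate reductase Zm00001d018206 had KNO3 responses of 2.10 in zmnlp3.1, 3.11 in zmnrt1.1b and 3.85 in WT on the log2 scale, and Ferredoxin-6 had 2.80 in zmnlp3.1, 2.89 in zmnrt1.1b and 3.92 in WT. The responses of HOX4 were smaller, at 1.14 in zmnlp3.1, 1.52 in zmnrt1.1b and 1.81 in WT. Zm00001d025707 was most like Zm00001d008340, the phospholipase PLIP2 (r = 0.909), and the protein kinases RBK2 (Zm00001d012882, r = 0.908) and PIX13 (Zm00001d026126, r = 0.8998). Picked for their likeness to Zm00001d025707, all of these shared its lower means in both mutants than in WT, under KNO3 and under KCl. Zm00001d017101 had no gene above 0.9, its nearest being 2 genes without a description and gene_Zm00001d047763, a cardiolipin synthase (r = 0.861). Between the members r was 0.51 for gene_Zm00001d042443 with Zm00001d025707, −0.47 with Zm00001d017101, and 0.25 for the other pair.

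**Figure D4:**
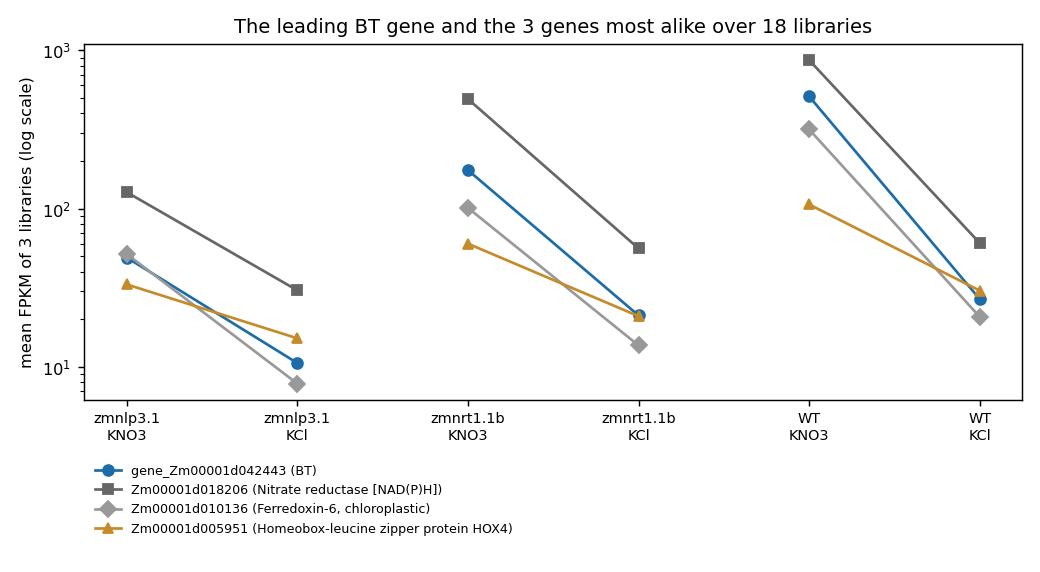
Mean FPKM (log axis, 3 libraries per point) of gene_Zm00001d042443 and the 3 genes with the highest r to it, by genotype and treatment, with lines joining KNO3 and KCl within a genotype. Nitrate reductase, Ferredoxin-6 and HOX4 are higher under KNO3 in each genotype and highest in WT under KNO3, like the BT gene, and HOX4 has the flattest lines.

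Genes of families that hold known partners of BT proteins were counted in the same comparisons. Few of all 26011 genes tested were called in a response, with 1048 in zmnlp3.1, 1208 in zmnrt1.1b and 1466 in WT. Level calls under KNO3 were more common among all genes. In zmnlp3.1 against WT, 14.7% were called higher and 16.7% lower. In zmnrt1.1b against WT, 7.9% were called higher and 9.66% lower. No list was tested against these counts and shares. Of 6 cullin-3 and RING-box genes, the core of the ubiquitin ligase, all 6 were tested and 0 were called in any response or response difference, with median responses of −0.14 in zmnlp3.1, 0.11 in zmnrt1.1b and −0.00 in WT on the log2 scale, where the median of all genes lay within 0.03 of 0. At an unadjusted p below 0.05 limma gave 1 of the 6 in zmnlp3.1 and 0 in the other 2 genotypes, and voom called 0. In the 6 level comparisons 0 of them were called by limma, with at most 2 at an unadjusted p below 0.05, and voom called 1, for zmnrt1.1b against WT under KNO3. All 3 calmodulin genes were tested and 0 were called in any response, with 2 in zmnlp3.1 and 1 each in zmnrt1.1b and WT at an unadjusted p below 0.05 and 0 called by voom. In levels under KNO3, 1 calmodulin gene was called higher and 1 lower in zmnlp3.1 than in WT, and 1 higher in zmnrt1.1b than in WT. Under KCl 1 was called lower in zmnlp3.1 than in zmnrt1.1b, beside 7.01% of all genes tested. Of 27 genes described as a GTE transcription factor or with a bromodomain, 20 were tested and 0 were called in any response. At an unadjusted p below 0.05 limma gave 7 in zmnlp3.1, 4 in zmnrt1.1b and 7 in WT, and voom called 0. In levels under KNO3, 1 gene of this list was called higher and 6 lower in zmnlp3.1 than in WT, and 1 was lower in zmnrt1.1b than in WT. In zmnlp3.1 against zmnrt1.1b under KNO3, 1 was higher and 1 lower, beside 1748 and 2246 of all 26011 genes tested. Under KCl 1 was called higher in zmnlp3.1 than in WT, beside 671 of all 26011 genes tested. The GTE4 gene Zm00001d039369 was the 1 gene of this list with a called response difference, at −0.70 for zmnlp3.1 against WT (adjusted p = 0.0246 from limma). Of all genes tested, 2.68% were called with a smaller value in that comparison. The GTE4 gene had 5.25 ± 0.186 FPKM under KNO3 and 6.39 ± 0.147 FPKM under KCl in zmnlp3.1, against 7.76 ± 0.840 and 5.78 ± 0.505 FPKM in WT (SD, n = 3 each). Of 6 genes for HAC histone acetyltransferases, which carry TAZ fingers in Arabidopsis though none is listed for them in the table, 3 were tested and 0 were called in any response or level comparison, with at most 2 at an unadjusted p below 0.05 and at most 1 called by voom. The 1 telomerase reverse transcriptase gene was below the minimum.

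Proteins with a BTB/POZ domain but no TAZ finger formed the largest related list, with 115 genes of which 70 were tested. In WT 2 were called higher and 1 lower under KNO3, beside 716 and 750 of all 26011 genes tested. In zmnlp3.1 and in zmnrt1.1b 0 were called, with 17 and 15 genes at an unadjusted p below 0.05 and 0 called by voom. For zmnlp3.1 against WT 1 response difference was called higher and 5 lower (voom called 6), with a list median of −0.19 beside 0.01 for all genes tested. Of all 26011 genes tested, 574 were called higher and 698 lower in that difference. For zmnrt1.1b against WT 0 were called higher and 1 lower, beside 141 and 252 of all genes. For zmnlp3.1 against zmnrt1.1b 0 were called higher and 1 lower, beside 358 and 107 of all genes. The latter gene was Zm00001d025788 (log2 difference −0.85, adjusted p = 0.0413 from limma). Zm00001d028056, described as SR1IP1, a BTB/POZ protein, had 1.04 ± 0.672 FPKM under KNO3 and 1.39 ± 0.437 FPKM under KCl in zmnlp3.1, against 6.50 ± 1.07 and 2.004 ± 0.690 FPKM in WT (SD, n = 3 each), and its response was smaller in zmnlp3.1 (log2 difference −2.19, adjusted p = 0.0174). Zm00001d025788, named after the Arabidopsis gene At2g24240, had 12.4 ± 0.871 FPKM under KNO3 and 12.7 ± 2.11 FPKM under KCl in zmnlp3.1, against 30.6 ± 3.55 and 13.8 ± 1.49 FPKM in WT (log2 difference of responses −1.16, adjusted p = 0.0052). Zm00001d049781, with a BTB/POZ and a MATH domain, lay near the expression minimum. It had 2.71 ± 0.538 FPKM under KNO3 and 1.72 ± 0.275 FPKM under KCl in zmnlp3.1, against 0.985 ± 0.414 and 2.17 ± 0.260 FPKM in WT. The gene fell in WT by 1.12 on the log2 scale (adjusted p = 0.0355), and its response was higher in zmnlp3.1 (log2 difference 1.74, adjusted p = 0.0452). Its own response in zmnlp3.1 was not called (0.62, adjusted p = 0.236 from limma). Under KNO3, 6 of the 70 genes were called higher and 20 lower in zmnlp3.1 than in WT, shares of the list that compare with 14.7% and 16.7% of all genes. In zmnrt1.1b 1 was higher and 7 lower than in WT under KNO3, beside 7.9% and 9.66% of all genes. Against zmnrt1.1b, 1 was higher and 10 lower in zmnlp3.1 under KNO3, beside 1748 and 2246 of all 26011 genes. Under KCl 1 was higher and 4 lower in zmnlp3.1 than in WT, beside 671 and 1771 genes. In zmnrt1.1b 2 were higher and 0 lower than in WT under KCl, beside 537 and 482 genes.

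High-affinity nitrate transporter genes, which BT proteins repress in Arabidopsis, were counted in the same comparisons as the BT genes. The list took every gene with that name in its description, including genes for transporter-activating proteins. Of 9 listed genes 6 were tested, and 0 were called in zmnlp3.1, 0 in zmnrt1.1b and 3 in WT, all 3 higher under KNO3. Of these 3, Zm00001d017095 is described as an activating protein and not as a transporter. Among all genes tested, 2.75% were called higher in WT. At an unadjusted p below 0.05 limma gave 0 in zmnlp3.1 and 4 in zmnrt1.1b, and voom called 0 in zmnlp3.1 and 1 in zmnrt1.1b. The list median of the responses was 0.44 in zmnlp3.1, 0.63 in zmnrt1.1b and 1.24 in WT. No response difference was called, with 2 of 6 at an unadjusted p below 0.05 for zmnlp3.1 against WT and 0 for zmnrt1.1b against WT, and 0 called by voom. Under KNO3 1 of the 6 was called higher and 3 lower in zmnlp3.1 than in WT, beside 14.7% higher and 16.7% lower of all genes tested. In zmnrt1.1b 0 were called higher and 1 lower than in WT, beside 7.9% and 9.66% of all genes. The gene Zm00001d044504 was called higher in zmnlp3.1 than in zmnrt1.1b under both treatments, and higher than in WT under KCl. Under KCl it had 19.9 ± 6.23 FPKM in zmnlp3.1 and 10.7 ± 1.51 FPKM in WT (SD, n = 3 each). That log2 difference was 0.86 (adjusted p = 0.0392 from limma), and 671 of all 26011 genes tested were called higher there. In these comparisons 0 genes of the list were called lower. Of 12 genes described as NLP proteins, the activators of BT genes in Arabidopsis, 10 were tested, and the NLP1 gene Zm00001d006293 was the 1 called in a response, lower under KNO3 in zmnlp3.1 (log2 response −1.04, adjusted p = 0.00053) and in WT (log2 response −1.22, adjusted p = 5.13e-05). In zmnrt1.1b its response of −0.71 was below the fold threshold (adjusted p = 0.00588 from limma). Of all 26011 genes tested, 595 were called lower under KNO3 in zmnlp3.1 and 750 in WT.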

How the data were processed

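RNA of 18 root libraries was sequenced as paired-end reads, cleaned with fastp, aligned by the authors with HISAT2 (2.0.5) to the B73 RefGen_v4 genome and assembled with StringTie (1.3.3b), per the labels and the methods. The deposited FPKM values were computed by the authors. The read counter, strandedness and scaling between libraries are not given in the sources used here, and reads of ND101 were aligned to another inbred line. FPKM times gene length gave whole reads within 0.05 for 100% of values. The sum that scaled FPKM was 0.925 to 1.109 times those reads.

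Values were analysed as log2(FPKM + 0.1), which understates changes of low genes. Genes reaching 1 FPKM in 3 or more libraries (26011) entered limma (3.58.1) in R (4.3.3), with a variance trend, 6 groups in 1 model, 12 residual degrees of freedom and two-sided Benjamini-Hochberg adjustment over all genes. The code was tested on simulated data. Responses were called at an adjusted p below 0.05 and a log2 change over 1, other differences at an adjusted p below 0.05. Alternatives changed the pseudocount (1 FPKM), the minimum (0.1 FPKM or none), the scaling (median ratios), the block (replicate number), the libraries fitted (only those of the comparison, or all but 1) or the test (voom, on recovered reads). Tables and figures were made with Python (3.11.15), pandas (2.3.3) and matplotlib (3.10.9).

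Members, related lists and tests were chosen with earlier results of these data known. Named genes were every member, the 3 genes with the highest r to each tested member, and from each related list at most 3 genes called in a response or response difference, by size of the WT response. Promoter and protein sequences of these gene models were not used here.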

Additional observations from a re-analysis of the deposited data

Results flagged for a closer look

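The NO3- response of gene_Zm00001d042443 differed between zmnlp3.1 and WT by a test of the difference itself. The response was 2.29 in zmnlp3.1 and 4.25 in WT on the log2 scale, a difference of −1.96 (95% interval −2.64 to −1.28, adjusted p = 0.00407 from limma), and leaving out each library in turn gave differences between −2.34 and −1.76, with −2.34 obtained without replicate 4 of zmnlp3.1 under KCl. The 2 other BT genes tested had differences of 0.10 and 0.14 in this comparison.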

How the results depend on the processing

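Of 900 values of single BT genes under the alternatives and without each library, 869 kept their direction and side of the threshold, 10 lost and 4 gained a call, and 17 changed sign. Of 300 counts of called BT genes 287 were kept. The response difference of zmnrt1.1b against WT, with 0 of 3 members called, gave 1 with only the groups compared and 1 with voom on the recovered reads, and 0 to 1 without single libraries. The difference of zmnlp3.1 against zmnrt1.1b gave 0 to 1 without single libraries. With only the groups compared, 0 members were called under KCl in zmnlp3.1 against WT and 0 against zmnrt1.1b, in fits with fewer libraries, and leaving out libraries gave 1 to 2 and 0 to 1. Under KNO3 it gave 1 to 2 in zmnlp3.1 against WT. The cause of the other changes was not tested.

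The changes of sign were all of values near 0. For Zm00001d017101 the response difference of zmnrt1.1b against WT was −0.00, with 0.013 at a pseudocount of 1, 0.0018 after rescaling by median ratios, 0.061 with voom and −0.12 to 0.15 without single libraries. Without single libraries, the response differences of this gene ranged between −0.055 and 0.29 for zmnlp3.1 against WT and −0.054 and 0.27 against zmnrt1.1b, and its levels in zmnlp3.1 against zmnrt1.1b between −0.16 and 0.17 under KNO3 and −0.16 and 0.014 under KCl. For Zm00001d025707 the response difference of zmnlp3.1 against WT ranged between −0.23 and 0.36.

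Samples shared replicate numbers in part, and a replicate block was fitted. Same-numbered libraries of a genotype correlated at −0.07 to 0.27 in their deviations from the group means (6 pairs), against −0.23 to 0.16 for 21 pairs of different numbers, so the numbers were not taken as pairs. With the block, 1 member in place of 2 was called under KNO3 in zmnrt1.1b against WT, since Zm00001d025707 then gave −0.92 with an adjusted p of 0.0504.

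The counts over all genes moved more. The response was called for 1048 genes in zmnlp3.1 and 1208 in zmnrt1.1b, against 450 to 1101 and 786 to 1394 genes under the alternatives. The response difference of zmnrt1.1b against WT was called for 393 genes, with 265 to 1182 under the alternatives and 77 to 600 without single libraries, and that of zmnlp3.1 against zmnrt1.1b for 465 genes, with 189 to 537 and 227 to 605. For zmnlp3.1 against WT, 1272 genes became 583 to 1890 without single libraries. Of the 6 level comparisons, zmnlp3.1 against zmnrt1.1b under KNO3 moved most under the alternatives, with 3994 genes against 1207 to 4520. With voom the median of all genes moved by 0.14 in zmnlp3.1 against WT under KNO3, where gene_Zm00001d042443 gave −3.24 and Zm00001d025707 gave −0.74. Low read numbers limited what could be detected for the 5 members below the minimum.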
